A study of Mus musculus with 5 samples.

Results

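The genes described here encode the proteins that neutrophils make late in their maturation, together with the S100 pair of their cytosol. They are Ltf, Camp, Ngp, Lcn2, Mmp8, Mmp9, Cd177, S100a8 and S100a9. They were chosen by symbol, and each had 1 transcript in the table, so 9 transcripts of 9 symbols were followed among 26531 transcripts of 22098 symbols. The study asked which lineages the transcription factor Ikaros affects in the blood-forming system. RNA was sequenced from bone marrow cells of C57BL/6 mice aged 6 to 7 weeks, sorted as Hardy fraction A, a gate for the first B lineage cells, without removing other lineages first. The groups were wild type (wt, 2 libraries), Ikaros_ZnF1-/-, which is mutant in Ikaros zinc finger 1 (dF1, 2 libraries), and Ikaros_ZnF4-/-, mutant in zinc finger 4 (dF4, 1 library, described by the submitters as of low coverage). The design text speaks of biological replicates for dF1. For wt no source names separate mice, so the p-values below reflect only how much these libraries varied, and part of that may be technical.

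Neutrophils fill their granules in sequence. Primary granules, with myeloperoxidase and elastase, are loaded in promyelocytes. Secondary and gelatinase granules are loaded in later precursors, when the transcription factor C/EBP epsilon (Cebpe) is active, and hold lactoferrin (Ltf), the cathelicidin antimicrobial peptide (Camp), the cathelicidin relative Ngp, lipocalin 2 (Lcn2), which traps bacterial siderophores, the collagenase Mmp8 and the gelatinase Mmp9. Cd177 is a surface glycoprotein that is also stored in granules. S100a8 and S100a9 pair to form calprotectin, a calcium-binding and metal-binding complex that fills the neutrophil cytosol. None of these genes marks B cell precursors.

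RefSeq promoter sequences (build GRCm38) were at hand for 8 of the 9 genes, all but Mmp9. The 250 bases before each start site were searched on both strands for TTGCNNAA (reverse complement TTNNGCAA), a C/EBP type site. The motif stood in 5 of the 8 windows, against 9.56% of 32851 promoter windows of the same length. Shown are the 5 windows that hold it, 5′ to 3′ on the gene's strand, with the match in capitals.

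Ltf (chr9:111019042-111019291, forward strand): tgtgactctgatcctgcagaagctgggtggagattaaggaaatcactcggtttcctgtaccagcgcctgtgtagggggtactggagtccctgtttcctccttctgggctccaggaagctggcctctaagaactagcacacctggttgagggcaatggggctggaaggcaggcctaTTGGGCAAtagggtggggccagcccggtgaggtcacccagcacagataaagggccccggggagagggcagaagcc

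Ngp (chr9:110419558-110419807, forward strand): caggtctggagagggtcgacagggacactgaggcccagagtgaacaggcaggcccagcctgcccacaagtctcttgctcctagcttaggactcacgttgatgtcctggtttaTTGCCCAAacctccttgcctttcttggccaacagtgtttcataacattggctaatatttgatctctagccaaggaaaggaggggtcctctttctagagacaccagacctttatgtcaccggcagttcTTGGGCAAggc

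Lcn2 (chr2:32387740-32387989, reverse strand): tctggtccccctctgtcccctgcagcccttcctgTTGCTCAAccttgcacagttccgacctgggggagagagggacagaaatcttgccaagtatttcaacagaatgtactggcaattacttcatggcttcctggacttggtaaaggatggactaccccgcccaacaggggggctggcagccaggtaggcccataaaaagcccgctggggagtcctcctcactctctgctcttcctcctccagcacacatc

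Mmp8 (chr9:7558179-7558428, forward strand): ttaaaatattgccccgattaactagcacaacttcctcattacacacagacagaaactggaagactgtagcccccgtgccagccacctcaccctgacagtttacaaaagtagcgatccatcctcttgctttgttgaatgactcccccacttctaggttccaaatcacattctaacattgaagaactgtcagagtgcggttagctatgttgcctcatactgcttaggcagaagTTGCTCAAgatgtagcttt

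S100a9 (chr3:90695722-90695971, reverse strand): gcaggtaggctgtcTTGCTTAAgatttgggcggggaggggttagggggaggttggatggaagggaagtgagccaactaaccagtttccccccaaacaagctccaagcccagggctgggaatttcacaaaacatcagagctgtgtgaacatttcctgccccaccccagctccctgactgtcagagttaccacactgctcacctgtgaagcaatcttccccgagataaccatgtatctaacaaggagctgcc

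The match began 75 bases before the start site in Ltf, 216 in Lcn2, 19 in Mmp8 and 236 in S100a9, and Ngp had a match at 138 and another at 11. A match of these letters is a description and not a shown binding site. A GAGGAA core of the PU.1 type (reverse complement TTCCTC, both strands) stood in 5 of the 8 windows, against 23.3% of all windows, and TATAA (reverse complement TTATA, both strands) in 2 of 8, S100a8 and Cd177, against 22.8%. In S100a8 a TTCCTC match directly precedes the TATAA match, which began 30 bases before the start site, and the matches share no base.

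Before the results, the libraries are set out briefly. Levels are given in RPKM, the reads on a transcript divided by its length and by the depth of the library. Transcripts at 1 RPKM or more numbered 11667 to 12272 per library. The dF4 library stood apart. It had 13024 transcripts listed at 0, where the other libraries had 10492 to 11036, and its low values put it at about 600178 reads, whereas the depth of the others could not be read from the table. The submitters label the cells as sorted pro-B cells. Of 11 pro-B markers, all were detected in every library, with a summed level of 649.2 and 406.5 RPKM in the wt libraries, 522.3 and 512.1 in those of dF1 and 1154.4 in dF4. The sum of 7 plasmacytoid dendritic cell markers was 3502.6 to 4343.6 RPKM in wt and dF1. Irf8 (1019.5 to 1359.5) and Bst2 (1047.8 to 1303.9) were the highest of the 7 there. The sum was 362.6 in dF4, where Cox6a2 and Cd300c were listed at 0. The sums are over different genes, so they do not compare the amounts of these cell types. In bulk RNA, fewer cells of a type and less RNA per cell cannot be told apart.

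The late neutrophil transcripts were present in all 5 libraries and followed a single order. For 9 of 9 genes the lowest library was dF1 replicate 1, followed by wt replicate 1, dF1 replicate 2, wt replicate 2 and, far above, dF4. Of the 12213 transcripts that averaged 1 RPKM or more over the libraries, 2.35% had that order. All 9 genes passed this filter, and all 9 also passed when the mean was taken over wt and dF1 alone. Summed over the genes, the level was 379.7 and 1037.9 RPKM in wt replicates 1 and 2, 193.8 and 785.7 RPKM in dF1 replicates 1 and 2 and 31658.8 RPKM in dF4. As a share of the summed RPKM of the table this was 0.124% and 0.363% in wt, 0.0648% and 0.255% for dF1 and 9.16% for dF4.

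**Figure D1:**
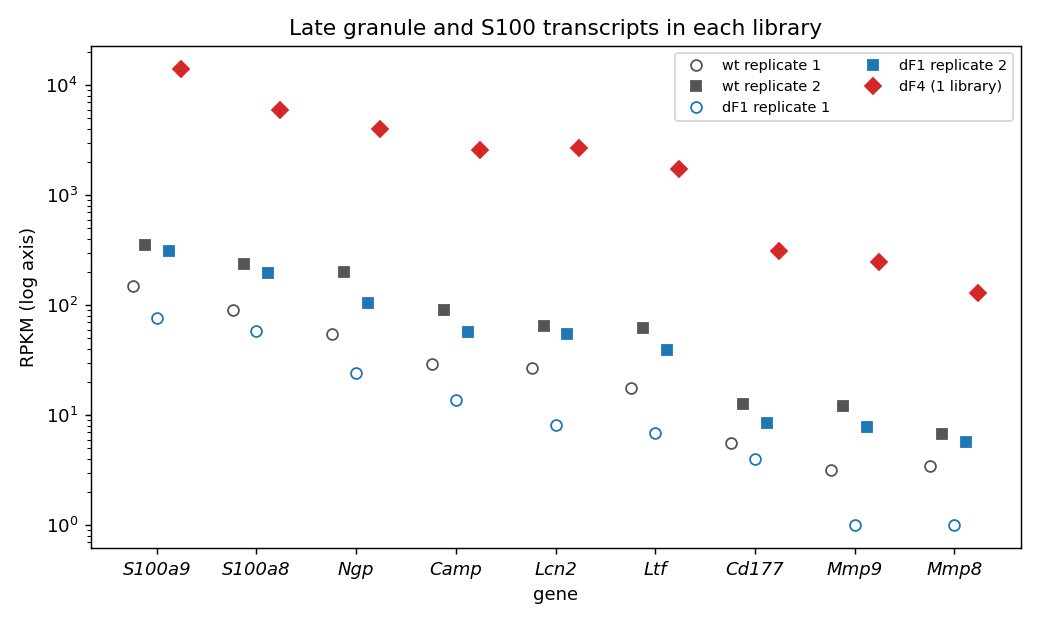
RPKM (log axis) of each of the 9 genes in the 5 libraries, with 1 point per library, open circles for replicate 1, squares for replicate 2 and diamonds for the single dF4 library. In each gene the replicate 2 points lie above the replicate 1 points of both genotypes, and dF4 lies above all, from 129 RPKM for Mmp8 to 14099.8 for S100a9.

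Among the secondary granule proteins, Ltf, which encodes the iron-binding lactoferrin, was at 17.9 and 61.8 RPKM in wt replicates 1 and 2, 6.9 and 39.6 in dF1 replicates 1 and 2 and 1743.8 in dF4. Camp was at 29.1 and 90.4 RPKM in the wt libraries, 13.8 and 57 in those of dF1 and 2550.6 in dF4. Ngp, a cystatin-like granule protein related to the cathelicidins, was at 54.3 and 202.7 RPKM in the wt libraries, 24.4 and 105.7 in those of dF1 and 4017.3 in dF4. In all 3 genes the wt and dF1 ranges overlapped, because dF1 replicate 2 lay between the wt libraries. Lcn2 was at 26.9 and 64.3 RPKM in the wt libraries, 8.1 and 55.3 in those of dF1 and 2669.9 in dF4. On RPKM as deposited its dF4 level was 58.6-fold above the wt mean, the highest fold of the 9 genes. After quantile normalization Ltf had the highest log2 difference, 5.04, beside 5.03 for Lcn2.

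The matrix-degrading enzymes were lower in level. Mmp8, the neutrophil collagenase, was at 3.5 and 6.7 RPKM in the wt libraries, 1 and 5.7 in those of dF1 and 129 in dF4. Mmp9, gelatinase B, was at 3.2 and 12.1 RPKM in the wt libraries, 1 and 7.8 in those of dF1 and 248.6 in dF4. The table is rounded to 1 decimal, so the dF1 replicate 1 values of both enzymes are coarse. Cd177 was at 5.6 and 12.7 RPKM in the wt libraries, 4 and 8.5 in those of dF1 and 309.2 in dF4. Its replicates were closer in dF1 (2.12-fold apart) than those of any other of the 9 genes in that genotype, where the others were 3.38-fold to 7.8-fold apart.

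The calprotectin subunits were the most abundant. S100a8 was at 90.7 and 236.6 RPKM in the wt libraries, 58.1 and 196.5 in those of dF1 and 5890.6 in dF4. S100a9 was at 148.5 and 350.6 RPKM in the wt libraries, 76.5 and 309.6 in those of dF1 and 14099.8 in dF4. S100a9 was the highest transcript of the whole table in dF4 and S100a8 the next, with Ngp at rank 4, Lcn2 at rank 6, Camp at rank 7 and Ltf at rank 10. In wt the rank of S100a9 was 233 in replicate 1 and 50 in replicate 2.

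The first comparison asked whether loss of finger 1 changed these transcripts. All 9 had a lower mean in dF1 than in wt, as did 48.2% of all transcripts, but none passed the test, and the wt and dF1 ranges overlapped for each of them. Ngp had the largest estimate, at 128.5 ± 105 RPKM (SD, n = 2) in the wt group and 65.1 ± 57.5 (n = 2) in the dF1 group, a difference of -1.03 on log2(RPKM + 1) with a 95% interval of -3.30 to 1.24 (SE 0.89, limma adjusted p = 0.848). S100a8 had the smallest, at 164 ± 103 RPKM in wt and 127 ± 97.9 in dF1, a log2 difference of -0.45 (interval -2.26 to 1.36, limma adjusted p = 0.915). The scale log2(RPKM + 1) understates differences of low transcripts. The median log2 difference was -0.82 over the 9 genes, beside 0.01 over all transcripts tested. The intervals are wide enough to hold a fall of several-fold and a rise.

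Of the 9 genes, limma called 0 at an adjusted p of 0.05 and 0 at an unadjusted p of 0.05. Over all 12213 transcripts it called 0 (0.0%) at the adjusted threshold and 875 (7.16%) unadjusted, and with robust variances 33 transcripts passed, again with 0 of the 9 genes. The dF1 range lay wholly below the wt range for 0 of the 9 genes, against 17.9% of all transcripts. The direction rested on single libraries. Without dF1 replicate 1 the log2 difference was above 0 for 8 of 9 genes, all but Cd177, with a median of 0.24, and without wt replicate 2 it was below 0 for 6 of 9, with a median of -0.04. Without wt replicate 1 the median was -1.53 and without dF1 replicate 2 it was -1.83.

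**Figure D2:**
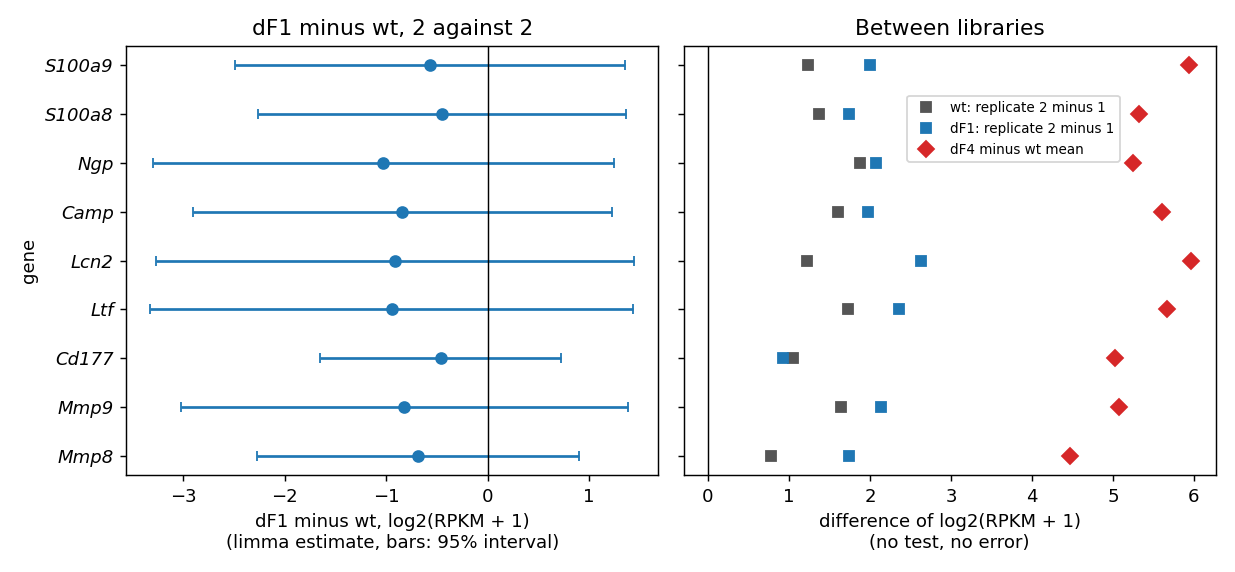
Left, the dF1 minus wt difference of log2(RPKM + 1) for each gene with its 95% interval from limma (2 libraries against 2). Right, the differences between replicates 2 and 1 within wt and within dF1 (squares) and between dF4 and the wt mean (diamonds). All intervals on the left cross 0, and on the right every point lies above 0.

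The spread between replicates of 1 genotype was larger than the difference between the genotypes. In wt, replicate 2 lay above replicate 1 by 0.77 (Mmp8) to 1.88 (Ngp) on the log2 scale, with a median of 1.37 over the 9 genes, beside -0.08 over all transcripts. In dF1 the same difference ran from 0.93 (Cd177) to 2.63 (Lcn2), with a median of 2.003, beside 0.05. In wt 8 of the 9 genes were at least 1 apart on this scale in that direction, all but Mmp8, against 0.671% of all transcripts. In dF1 8 of 9 were, all but Cd177, against 0.966%. Each side of these comparisons is 1 library, so they carry no test.

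Only 34 transcripts (0.278%) were at least 1 higher in replicate 2 in both genotypes, and 7 of the 34 were from the 9 genes (Camp, Lcn2, Ltf, Mmp9, Ngp, S100a8 and S100a9). A further 3 came from the list of other maturation genes of neutrophils (Chi3l1, Ifitm6 and Retnlg), 3 were eosinophil markers (Ear6, Epx and Prg2), 2 erythroid markers (Alas2 and Slc4a1) and 1 a basophil protease (Prss34). The other 18 were on none of the lists. The names beyond the 9 genes were noted after their values were seen.

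The other comparison was between dF4 and wt, and with 1 dF4 library it has no test. All 9 genes were far higher in dF4, which was the highest of the 5 libraries for 40.3% of all transcripts. S100a9 was at 14099.8 RPKM, about 4155 reads (exact 95% Poisson interval 13674 to 14535 RPKM, counting error only), 56.5-fold above the wt mean of 249.6 ± 143 RPKM (SD, n = 2) and 40.2-fold above the higher wt library. Mmp8, with the smallest fold, was at 129 RPKM on about 191 reads (interval 112 to 149), 25.3-fold above the wt mean of 5.1 ± 2.26 RPKM and 19.3-fold above the higher wt library. On the log2(RPKM + 1) scale dF4 exceeded the wt mean by 4.46 to 5.97, with a median of 5.32, beside 0.02 over all transcripts. After quantile normalization these differences were smaller, from 4.08 for Ngp to 5.04 for Ltf, and that of S100a9 was 4.24. By the rule of a difference of at least 1 with dF4 above both wt libraries, 9 of the 9 genes were higher, against 13.4% of all transcripts. Against the dF1 mean, dF4 was higher by 5.15 to 6.88, and 9 of 9 genes met the same rule, against 13.5%. The gap from the wt mean to dF4 was 2.72 log2 units or more beyond the widest gap between replicates of 1 genotype for each of the 9 genes.

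The make-up of the summed level was compared within libraries, on RPKM, which is per length. S100a9 held 39.1% and 33.8% of it in wt replicates 1 and 2, 39.5% and 39.4% in dF1 and 44.5% in dF4. S100a8 held 23.9% and 22.8% in wt, 30.0% and 25.01% for dF1 and 18.6% for dF4. The S100a9 to S100a8 ratio was 1.64 and 1.48 in wt, 1.32 and 1.58 for dF1 and 2.39 for dF4, which lay outside the other 4. Ngp held 12.6% to 19.5%, with the highest share in wt replicate 2, and the Ngp to Camp ratio was 1.87 and 2.24 in wt, 1.77 and 1.85 for dF1 and 1.58 for dF4. Camp kept the narrowest relative range, 7.12% to 8.71%. Mmp9 was 0.914 and 1.81 times Mmp8 in wt, 1 and 1.37 times for dF1 and 1.93 times for dF4. While the sum differed 163-fold between dF1 replicate 1 and dF4, no gene's share of it differed by more than 2.26-fold.

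**Figure D3:**
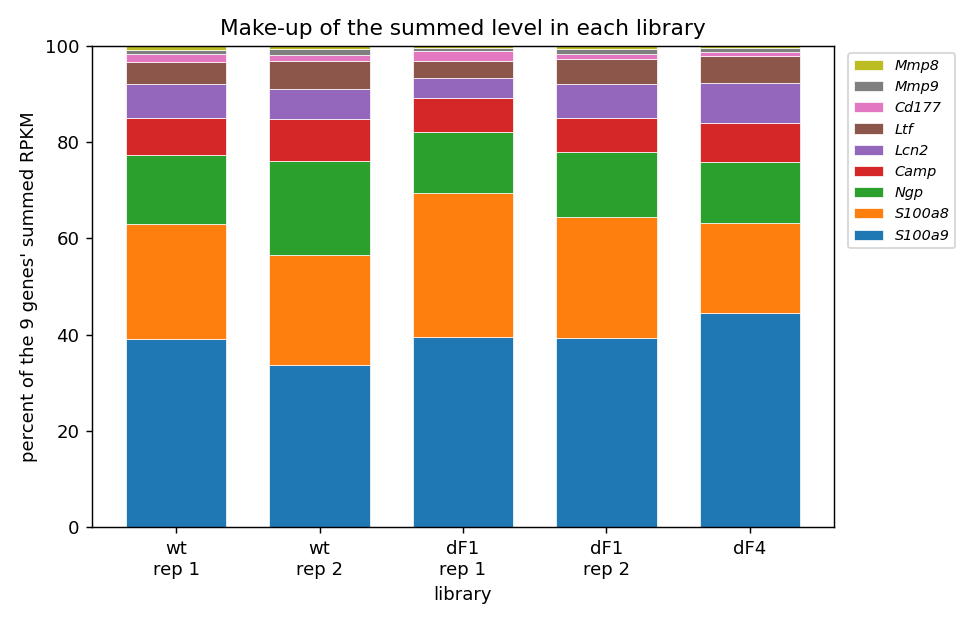
Percent of the summed RPKM of the 9 genes held by each gene, as 1 stacked bar per library that ends at 100. S100a9 and S100a8 together fill more than the other 7 genes in every bar, and dF4 has the highest S100a9 share (44.5%) and the lowest S100a8 share (18.6%).

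The primary granule genes gave a point of comparison. Mpo, the myeloperoxidase, was at 12.8 and 22.5 RPKM in the wt libraries, 15 and 34.5 in those of dF1 and 772.9 in dF4, and the elastase Elane at 4.7 and 9.4, 1.4 and 8.3, and 537.8. Prtn3, proteinase 3, was at 3.3 and 5 RPKM in the wt libraries, 4 and 8.7 in those of dF1 and 335.9 in dF4, and cathepsin G (Ctsg) at 3.4 and 4.2, 7.4 and 12.5, and 309.8. The summed level of the 9 late genes was 15.1 and 24.4 times that of Mpo, Elane, Prtn3, Ctsg and Ms4a3 in wt, 6.85 and 11.8 times for dF1 and 15.7 times for dF4. Both dF1 ratios were below both wt ratios, and dF4 lay between the wt values. Among levels of single transcripts, dF1 lay wholly below wt for 17.9% and wholly above for 16.9%. No test was made of the ratio of late to primary granule genes. Ctsg had the lowest p of the primary granule list (log2 difference dF1 minus wt 1.15, limma adjusted p = 0.468), and 0 of its 6 tested members passed. All 6 were higher in replicate 2 of both genotypes (medians of 0.44 in wt and 1.05 in dF1). Of all transcripts, 36.8% were higher in replicate 2 than in replicate 1 of wt and 57.3% in dF1, the shares against which the replicate counts of the lists are read. By the rule above, 5 of 6 were higher in dF4, all but Prss57, against 13.4% of all transcripts.

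Other genes of the neutrophil programme were read from a list of 47 symbols, of which 42 were found and 37 tested. Of these 37, 0 passed between dF1 and wt. The filter on low values includes dF4, so members that are low elsewhere could enter through it. Counts in dF4 and between replicates are therefore given for those that averaged 1 RPKM or more over wt and dF1 alone. Of 28 such members, 23 were higher in dF4 and 0 lower, against 1172 (10%) higher of the 11673 transcripts that met this filter, and their median dF4 difference was 3.64. Between replicates, 17 of the 28 were higher in wt replicate 2 (median 0.24) and 22 in dF1 replicate 2 (median 0.51). The largest dF4 differences among the 37 were those of Fcnb, a ficolin of the secondary granule lineage (2.1 and 4.7 RPKM in wt, 0.2 and 4.1 in dF1, 292.3 in dF4), the acute phase protein Orm1 (0.1 and 0.4, 0.1 and 0.6, 56.9), haptoglobin, Hp (6.5 and 11.8, 3.6 and 10.4, 373.5) and Itgb2l (0.8 and 2.4, 0.2 and 2, 93). Orm1 averaged 0.3 RPKM over wt and dF1, so it was tested only through its dF4 level.

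Among granulocyte transcription factors, Cebpe was at 0.6 and 2 RPKM in the wt libraries, 0.3 and 1.2 in those of dF1 and 56.9 in dF4, the same order of libraries as the 9 genes. Cebpb was at 1.2 and 1 RPKM in the wt libraries, 0.8 and 1.4 in those of dF1 and 13.4 in dF4, and Cebpd at 1.4 and 1.6, 1.3 and 1.8, and 9.2. Gfi1, a repressor needed for neutrophil maturation, was at 7.5 and 4.4 RPKM in the wt libraries, 6.7 and 5.3 in those of dF1 and 18.7 in dF4. Irf8, which favours monocytes and dendritic cells over neutrophils, was at 1190.3 and 1317.2 RPKM in the wt libraries, 1019.5 and 1359.5 in those of dF1 and 215.8 in dF4. Of the list's 9 tested members 5 were higher in dF4, against 13.4% of all transcripts, and 1, Irf8, was lower, against 12.9%. Between dF1 and wt 0 passed.

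The rest of the S100 family lay differently between the libraries. Of its 6 tested members 0 were higher in wt replicate 2 than in replicate 1, with a median of -0.76, and 4 were higher in dF1 replicate 2, with a median of 0.20. S100a4 was at 29.2 and 14.2 RPKM in the wt libraries, 10.2 and 14.5 in those of dF1 and 93.6 in dF4, S100a11 at 14.8 and 5.1, 11.9 and 19.1, and 35.8, S100a6 at 100 and 99.5, 101.3 and 96.6, and 190.5, and S100a1 at 7 and 4.2, 5.1 and 5.9, and 59.7. By the rule 3 of the 6 were higher in dF4, against 13.4% of all transcripts. Of the 17 other matrix metalloproteinases only 5 were tested, and Mmp25, Mmp14 and Mmp23 were among them only through their dF4 level, since they averaged under 1 RPKM over wt and dF1. Mmp25, a membrane-anchored enzyme of neutrophils, was at 0.2 and 1 RPKM in the wt libraries, 0.2 and 0.7 in those of dF1 and 19.1 in dF4. Mmp14 was at 0.8 and 0.4, 0.1 and 0.1, and 20.4, and Mmp23 at 0.1 and 0.1, 0 and 0.1, and 4.7, while Mmp11 was near 4 to 6 RPKM in every library (3.7 to 5.9).

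Receptors, partners and inhibitors of these proteins went both ways in dF4. Tlr4, a receptor that calprotectin engages, was at 2.4 and 1.5 RPKM in the wt libraries, 2.4 and 2 in those of dF1 and 9.6 in dF4. Fpr2, a receptor of the cathelicidin peptide, was at 0.4 and 0.4 RPKM in the wt libraries, 0.1 and 1.4 in those of dF1 and 31 in dF4, and Itgam, the CD11b integrin chain, at 26.8 and 19.4, 29.7 and 30.5, and 131.8. Fpr2 averaged 0.575 RPKM over wt and dF1, so it was tested only through its dF4 level. P2rx7 was at 15.9 and 22.8 RPKM in the wt libraries, 21.6 and 21.1 in those of dF1 and 0.7 in dF4. Timp1, an inhibitor of both metalloproteinases, was at 0.1 RPKM in dF1 replicate 2 and listed at 0 in the other libraries. Of the list's 14 tested members 0 passed between dF1 and wt. Of the 13 that averaged 1 RPKM or more over wt and dF1 alone, 5 were higher and 4 lower in dF4. Of all transcripts under that filter 10% were higher, and 12.9% of the 12213 transcripts tested were lower. Of the cystatin and cathelicidin relatives besides Camp and Ngp, Cst7 was at 43.4 and 18.7 RPKM in the wt libraries, 49.9 and 46.5 in those of dF1 and 71.2 in dF4, Cstb at 31.9 and 30.8, 29.9 and 29.7, and 8.3, and Cst3 at 299.9 and 258, 353.3 and 437.9, and 293.7.

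Summed eosinophil and erythroid markers had the same order of libraries as the 9 genes, and basophil and mast cell markers did not. Of 8 tested eosinophil markers, 8 were higher in wt replicate 2 than in replicate 1 and 6 in dF1 replicate 2. Their sum over 9 genes was 10.5 and 44.5 RPKM in the wt libraries, 9.4 and 30.2 in those of dF1 and 702.5 in dF4, with Prg2, the granule major basic protein, the highest of them in every library at 8.2 and 34.6, 3.9 and 19.5, and 555.8. Prg2 thus carried most of the sum. Taken singly, of the tested eosinophil markers only Prg2 and Prg3 had the order of the 9 genes. Epx, for example, was at 0.5 and 2.1, 0.7 and 2.5, and 37.8. The 7 erythroid markers summed to 26.6 and 66.6 RPKM in the wt libraries, 17.2 and 58.7 in those of dF1 and 1274.3 in dF4, with 6 of 7 higher in wt replicate 2 and 7 of 7 in dF1 replicate 2. The 7 basophil and mast cell markers summed to 7 and 14 RPKM in the wt libraries, 39.2 and 36.6 in those of dF1 and 465.5 in dF4. Both dF1 sums thus lay above both of wt, an arrangement that 16.9% of all transcripts had singly. Most of both dF1 sums came from Cma1. Prss34 taken singly had the order of the 9 genes, at 1.7 and 7.5, 1.5 and 5.9, and 274.2. Mcpt8 did not, at 0.6 and 3.4, 4.4 and 6.6, and 146. Of the 7 markers, 6 were higher in wt replicate 2 and 5 in dF1 replicate 2. Only 4 of the eosinophil, 3 of the basophil and mast cell and 5 of the erythroid markers averaged 1 RPKM or more over wt and dF1 alone, so no count in dF4 is given for them. Of these, 4, 2 and 4 were higher in wt replicate 2 and 3, 2 and 5 in dF1 replicate 2. Markers listed at 0 were Ear1, Ms4a2 and Fcer1a in wt replicate 1, Prg3, Il5ra, Fcer1a and Gata2 in dF1 replicate 1, Ms4a2 in dF1 replicate 2 and Cma1 in dF4. The part of these cells in the differences of the late neutrophil genes was not tested.

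The sum of the 10 monocyte markers did not follow that order, at 387.7 and 317.5 RPKM in the wt libraries, 453.7 and 399.9 in those of dF1 and 327.9 in dF4. Single members went both ways in dF4. F13a1 was at 4.4 and 3.5 RPKM in the wt libraries, 1.3 and 3.5 in those of dF1 and 80.9 in dF4, Csf1r at 4.7 and 3.2, 2.4 and 7.3, and 41.7, and Cd68 at 171.4 and 215.9, 181 and 169.2, and 51.4. Of the 7 that averaged 1 RPKM or more over wt and dF1 alone, 2 were higher and 1 lower in dF4. Of all transcripts under that filter, 10% were higher. Of the same 7 markers, 3 were higher in wt replicate 2 and 4 in dF1 replicate 2. The pro-B markers were lower in wt replicate 2 than in replicate 1 for 11 of 11 (median -0.74), and 7 of 11 were higher in dF1 replicate 2 (median 0.03). The NK cell markers were lower in wt replicate 2 for 7 of 7 (median -0.97), and 1 of 7 was higher in dF1 replicate 2 (median -0.09).

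**Figure D4:**
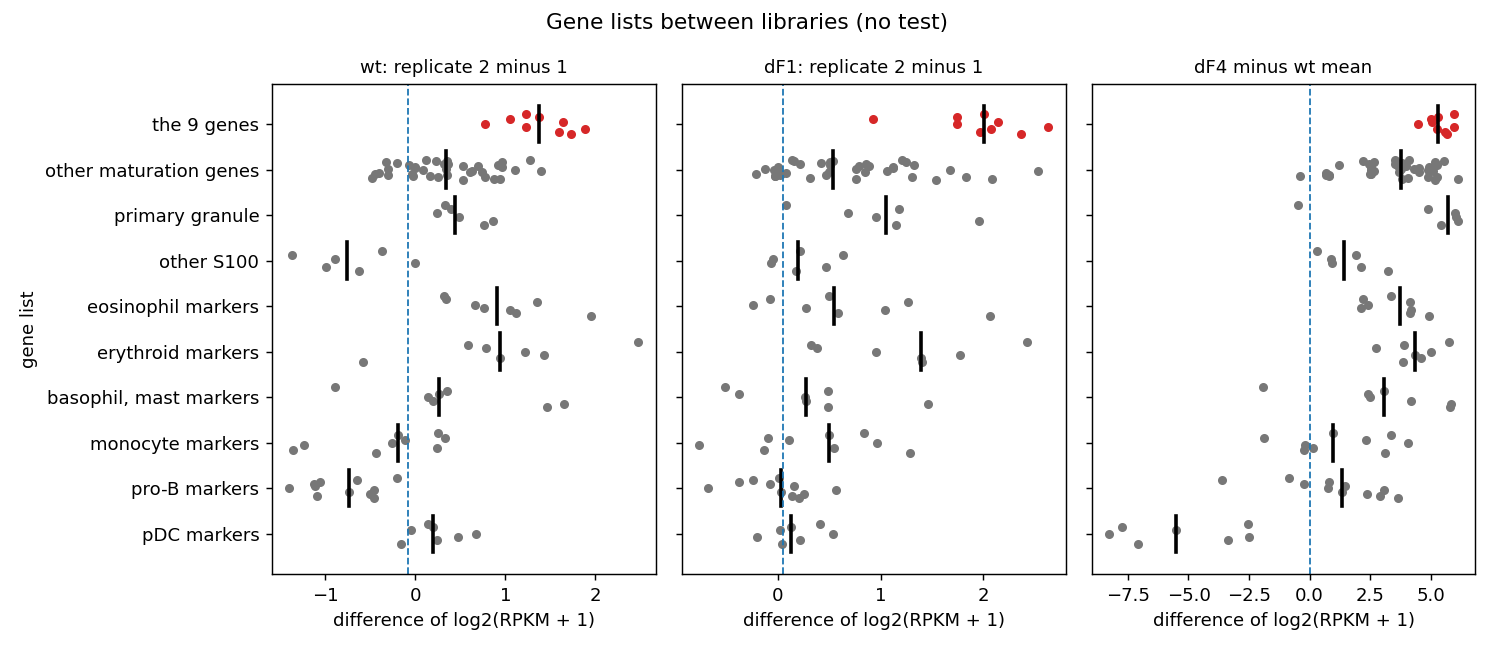
Difference of log2(RPKM + 1) for each tested gene of 10 lists, with 1 point per gene, a black bar at the list's median and a dashed line at the median of all transcripts. The panels show replicate 2 minus replicate 1 in wt and in dF1, and dF4 minus the wt mean. The 9 late neutrophil genes (top row) lie to the right in all panels, with medians of 1.37, 2.003 and 5.32. In the other rows, genes that are low in wt and dF1 could enter every panel through dF4.

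The transcripts most like the 9 genes were taken by the root mean square difference between centred log2(RPKM + 1) profiles. The candidates, for both sets below, were 8749 other transcripts that averaged 5 RPKM or more over the 5 libraries. That mean includes dF4. Of the transcripts named here, 1100001G20Rik, Aqp1, Prss34, Itgb2l and Fcnb averaged under 5 RPKM over wt and dF1, so they entered only through dF4. Over the 5 libraries Retnlg, a resistin-like protein of neutrophils, was nearest (difference 0.21, at 12.9 and 35.5 RPKM in the wt libraries, 4.3 and 29.6 in those of dF1 and 768 in dF4). It was followed by the eosinophil granule gene Prg2 (0.24), 1100001G20Rik (0.27), the water channel Aqp1 (0.29), the basophil protease Prss34 (0.31), the chitinase-like Chi3l3 (0.31), Itgb2l (0.32) and Hp (0.33). The 9 genes themselves lay at 0.14 (Camp) to 0.43 (Mmp8) from their own mean profile, and the median candidate at 2.45. Over the 4 wt and dF1 libraries alone the nearest were Alas2, the erythroid enzyme of heme synthesis (0.08), Aqp1 (0.13), Elane (0.19), Fcnb (0.19), Retnlg (0.21), Prg2 (0.21), Ifitm6 (0.27) and Ramp1 (0.29), with the median candidate at 0.94. Retnlg, Prg2 and Aqp1 stood in both sets. Ramp1 was listed at 0 in dF4, against 3.3 to 13.3 RPKM in the others.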

How the data were processed

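The authors deposited RPKM values, 1 per RefSeq transcript and library, rounded to 1 decimal per the file headers. TopHat and bedtools, with no version, and the build mm9 appear in the submitters' processing notes. How strand and multiply mapped reads were handled is not given in the sources used here. A line that named no gene was left out, and 0 columns of samples were unused. In dF4, RPKM times length gave a whole number of steps of 1.67 RPM, to within 0.1 step, in 81.8% of the 1573 low values examined, which gives its depth. No step was found in the other libraries, whose depth is unknown.

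Differences were computed on log2(RPKM + 1). The dF1 and wt libraries were compared with limma 3.58.1 in R 4.3.3 (eBayes with a trend, two-sided) over the 12213 transcripts averaging 1 RPKM or more across the 5 libraries. P-values were adjusted over all of them by the Benjamini-Hochberg method, and 0.05 was the threshold. The dF4 library and the replicate differences were described without a test. A gene with several transcripts is given by the one with the highest mean. Promoters are RefSeq's, build GRCm38. The fit was tested on simulated data. Python 3.11.15 was used for the rest.

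The 9 genes, the lists, the tests and the alternatives were chosen with earlier results of these data known. By the naming rule, each list gives the up to 4 members with the largest difference from wt in dF1 or dF4, plus Cebpe, Gfi1, the primary granule enzymes, Tlr4 and Timp1. The alternatives were pseudocounts of 0.1 and 5, other filters, median centring, quantile normalization, robust variances, a replicate block and leaving out each replicate. The dF1 mean as the reference of dF4, and the higher wt library alone, were added after the data were seen.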

Additional observations from a re-analysis of the deposited data

Results flagged for a closer look

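Slpi, a secreted inhibitor of neutrophil elastase, lay on opposite sides of wt in the dF1 libraries and the single dF4 library. It was at 44.3 and 42.3 RPKM in the wt libraries, 12.1 and 17.6 in those of dF1 and 102.8 in dF4, so both dF1 libraries lay below both wt libraries (log2 difference -1.50, limma adjusted p = 0.199) and dF4 above them (1.23). Unlike the 9 late granule and S100 genes, its wt replicates were close.

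Lrp1, a large endocytic receptor that takes up lactoferrin and metalloproteinases, showed the same pattern at lower level. It was at 2.6 and 3.5 RPKM in the wt libraries, 0.5 and 1 in those of dF1 and 16.9 in dF4, a log2 difference of -1.22 in dF1 (limma adjusted p = 0.312) and 2.15 in dF4. Both were flagged because the dF1 and dF4 libraries lay on opposite sides of both wt libraries by at least 1 on the log2 scale. The share of all transcripts that met this joint rule is not given. Taken singly, dF1 lay wholly below wt for 17.9% of all transcripts, and 13.4% were higher in dF4 by the rule above. The difference between the mutants was not tested, and both comparisons share the wt libraries.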

How the results depend on the processing

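Under the 13 alternatives to the dF1 and wt comparison, 0 of the 9 genes passed. All 9 differences stayed below 0 under every alternative except leaving out dF1 replicate 1 or wt replicate 2. Over the fits that leave out 1 replicate, the log2 difference ran from -2.12 to 0.24 for Ltf, -1.83 to 0.15 for Camp, -2.06 to 0.0077 for Ngp, -2.23 to 0.40 for Lcn2, -1.56 to 0.19 for Mmp8, -1.89 to 0.25 for Mmp9, -0.99 to 0.062 for Cd177, -1.32 to 0.42 for S100a8 and -1.56 to 0.44 for S100a9. The values above 0 came without dF1 replicate 1 for all but Cd177, and without wt replicate 2 for Cd177 (0.062), S100a8 (0.24) and S100a9 (0.054). In these fits the group of 1 library is assumed to vary like the group of 2. With the replicate number as a block, 0 of the 9 genes and 0 of all transcripts passed (limma adjusted p 0.190 to 0.583 over the 9 genes), and 6 of the 9 had an unadjusted p under 0.05, as did 8.77% of all transcripts in that fit. The labels do not say what a shared number marks, and replicate deviations correlated at 0.305 over transcripts between the genotypes.

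Over all transcripts the count called was 0, but 25 with the filter at 5 RPKM, 33 with robust variances and 245 with no filter, where 26531 transcripts were tested. For dF4, 9 of 9 genes were higher under every alternative run, and the median ran from 4.63 to 6.18 against wt. Quantile normalization lowered the difference of S100a9 from 5.94 to 4.24 and that of Lcn2 from 5.97 to 5.03. The counts over all transcripts, 1634 higher and 1575 lower, were 838 and 936 with the filter at 5 RPKM and 893 and 638 with a pseudocount of 5. The replicate counts of 8 of 9 in wt and in dF1 stayed within 1.5 times of that under the other pseudocounts and scalings. The cause of these changes was not tested. The depth of wt and dF1 is unknown, so no counting interval can be given for them.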
